A study of Mus musculus with 2 samples.

Results

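The antioxidant, glutathione and NADPH supply genes comprise 43 named genes, chosen by symbol, of the 22322 genes listed in each library of liver macrophages. Values came from 1 FABP7 KO library and 1 WT library, so the spread between replicates is unknown and nothing was tested. The FABP7 KO mice carried a systemic knockout of Fabp7, with the strain background labelled C57BL/6 and given as C57BL/6 J in the methods, and the comparison was with WT mice labelled C57BL/6, which the paper describes as littermates for its injection experiments. Mice in the study were male and 6 to 8 weeks old, and the number of animals pooled per library is not stated in the sources used here. Both genotypes received 500000 MC38 cells, a mouse colon carcinoma line, in 100 µl PBS into the spleen, and macrophages were selected on F4/80 from the metastatic liver on day 10. One label field calls the KO sample a knockdown, whereas its title and the paper's methods name a knockout. Fabp7 (ENSMUSG00000019874) stood at 0.69 FPKM in the KO library and 354 FPKM in the WT library.

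Peroxiredoxins reduce hydrogen peroxide with electrons from thioredoxin, and glutathione peroxidases do so with glutathione. Both routes draw on NADPH, which thioredoxin reductase and glutathione reductase spend and the oxidative pentose phosphate pathway regenerates. NRF2, encoded by Nfe2l2, is the transcription factor that drives many of these genes after its inhibitor KEAP1 releases it. In macrophages this system limits the damage from oxidants that the cells themselves produce.

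FPKM are fragments scaled to the length of the gene and to the total of the library. A ratio is log2 of KO over WT after 1 FPKM was added to each value. Only genes that reached 1 FPKM in at least 1 library were measured, which kept 39 of the 43 members and 10770 genes in all. Size was judged by 2 rules, 2-fold and 1.5-fold, which are not tests. Low values of short genes lay on whole fragments (within 0.15 for 90.9% of 165 values in the KO and 89.9% of 169 in the WT library, where chance gives 30%), which put the depth at about 17940000 fragments in the KO and 18020000 in the WT library. From this depth, 95% intervals for counting error were computed for the plain FPKM ratio (exact binomial). They leave out all variation between mice.

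Nfe2l2 (ENSMUSG00000015839) was 2-fold higher in FABP7 KO macrophages, while most of the measured NRF2 target genes among the members had slightly lower values. Sod3, the secreted superoxide dismutase, was the other member past 2-fold upwards. Past 2-fold downwards were Gstm1, a mu class glutathione transferase, and Prdx4, the peroxiredoxin of the endoplasmic reticulum. Glrx, Gpx3 and Tkt were lower by at least 1.5-fold. In all, 2 of 39 measured members passed 2-fold upwards and 2 downwards, where 2.21% and 2.95% of all measured genes passed these rules. At 1.5-fold, 2 members were higher and 5 lower (5.13% and 12.8%), against 8.02% and 7.37% of all genes. The remaining 32 lay within 1.5-fold. Small differences had an uneven direction, since 28 of 39 members (71.8%) had a ratio below 0 and 11 a ratio above 0, against 49.5% of all measured genes below 0 and 50.3% above it. The median ratio of the members was -0.23, and that of all measured genes 0.004. Part of this background depended on the level of expression. Among genes averaging 100 FPKM or more, 9 of 11 members lay below 0 with a median of -0.35, beside 61.6% of 718 genes with a median of -0.12. Between 10 and 100 FPKM, 15 of 21 members lay below 0 with a median of -0.23, beside 54.5% of 4916 genes with a median of -0.03. The counting interval lay wholly below 0 for 24 of the 39 members and wholly above 0 for 6. These shares were not computed for all genes, so they cannot be set against a background.

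**Figure D1:**
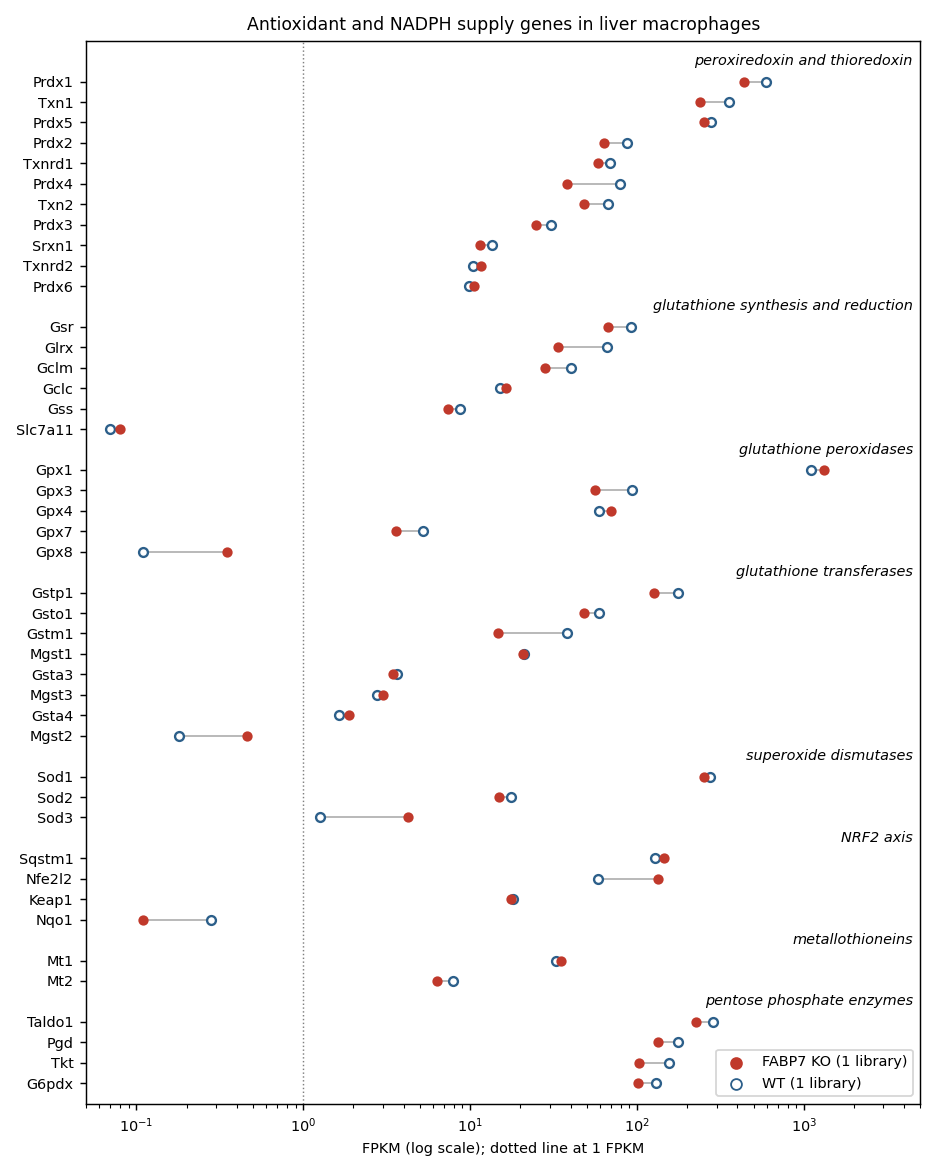
FPKM of each of the 43 genes (rows, grouped by role) on a log scale in the FABP7 KO library (red) and the WT library (open blue). Nfe2l2 and Sod3 lie to the right in the KO library, Gstm1, Prdx4 and Glrx to the left, and 4 genes (Slc7a11, Gpx8, Mgst2 and Nqo1) stay left of the 1 FPKM line in both.

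As a family the members were abundant. Together they took up 0.934% of the summed FPKM of the KO library and 1.01% of that of the WT library. Gpx1, Prdx1, Txn1, Prdx5 and Sod1 made up 59.6% of the members' sum in the KO and 55.9% in the WT library. Gpx1, the main cytosolic glutathione peroxidase, ranked at place 40 of all genes by FPKM in the KO library and at place 43 in the WT library. Nfe2l2 stood at place 521 in the KO library and 1247 in the WT library, and Gstm1 at place 4360 in the KO library and 1955 in the WT library.

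The NRF2 regulators were examined first, because this factor binds the antioxidant response element (ARE) in many of the members. Nfe2l2 was at 134 FPKM in KO macrophages and 58.5 FPKM in WT macrophages, a log2 ratio of 1.18. Its plain FPKM ratio of 2.29 rested on an estimated 9098 fragments in the KO and 3999 in the WT library, with a counting interval of 1.14 to 1.25 on the log2 scale. Keap1, whose product holds NRF2 in the cytoplasm for degradation, was at 17.6 FPKM in KO and 18.1 FPKM in WT macrophages, a log2 ratio of -0.04 with a counting interval that included 0. Sqstm1 encodes p62, an autophagy receptor that binds KEAP1 and is itself an NRF2 target. It was at 146 FPKM in KO and 129 FPKM in WT macrophages (log2 ratio 0.17). Nqo1, a quinone reductase often used as a readout of NRF2, was under the floor in both libraries, at 0.11 FPKM in KO and 0.28 FPKM in WT macrophages, an estimated 3 and 8 fragments.

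Of 13 members listed as NRF2 targets, 11 were measured, and 9 of these had a ratio below 0. Those 9 were Prdx1, Txnrd1, Srxn1, Gclm, Gsr and all 4 pentose phosphate enzymes, so the targets overlap with that group. The 11 measured targets had a median log2 ratio of -0.35 and ranged between -0.59 and 0.17, and 1 of them, Tkt, passed 1.5-fold. Most of the measured target genes therefore did not share the direction of the Nfe2l2 mRNA in this pair of libraries, but Sqstm1 and Gclc lay above 0. Of the 39 measured members, targets included, 28 (71.8%) also lay below 0, so a lean downwards was not particular to the targets. No protein level or nuclear amount of NRF2 was measured here.

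**Figure D2:**
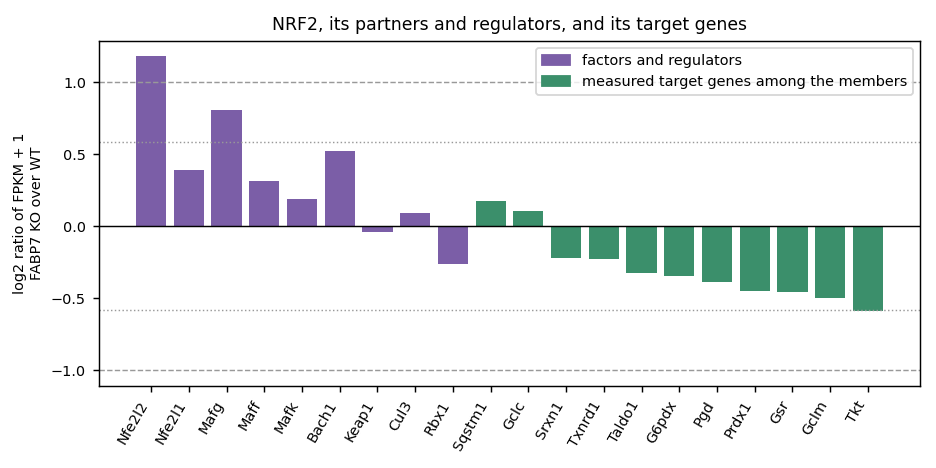
Bars give the log2 ratio of KO over WT (y axis, FPKM + 1) for Nfe2l2 with its relative, partners and regulators (purple) and the 11 measured NRF2 targets among the members (green), with dotted lines at 1.5-fold and dashed lines at 2-fold. Nfe2l2 reaches 1.18 and Mafg 0.81, and among the targets only Sqstm1 and Gclc lie above 0.

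Promoter windows of 300 bases (250 before to 50 after a start) were found in RefSeq (GRCm38.p6) for 38 of the 43 members and searched on both strands for the ARE core TGACNNNGC. It was present in 11 of the 38 members (28.9%) and in 14.0% of all 27025 genes with a window. Gclc, Gsr, Gsta4, Prdx6 and Sod3 had no window and were not searched, and Gclc and Gsr are listed NRF2 targets. The following windows belong to Nfe2l2 itself and to the 6 listed NRF2 targets with a match, and are shown because they set the factor's known motif beside genes whose mRNA ratios had other directions. Each is written 5′ to 3′ on the strand that carries the core, which is in capitals.
Nfe2l2 (chr2:75704885-75704913, minus strand): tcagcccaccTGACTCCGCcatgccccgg
Prdx1 (chr4:116685456-116685484, minus strand): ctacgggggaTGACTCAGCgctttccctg
Gclm (chr3:122245413-122245441, minus strand): tcgtgagagtTGACGGTGCgcccgggagc
G6pdx (chrX:74428919-74428947, plus strand): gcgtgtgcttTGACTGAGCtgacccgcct
Txnrd1 (chr10:82859104-82859132, minus strand): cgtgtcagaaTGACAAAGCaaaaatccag
Srxn1 (chr2:152105542-152105570, minus strand): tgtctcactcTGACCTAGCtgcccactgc
Pgd (chr4:149166061-149166089, minus strand): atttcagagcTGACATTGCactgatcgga

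The matches to Nfe2l2, Prdx1, Gclm, G6pdx and Txnrd1 lay before the start, and those to Srxn1 and Pgd after it. In Prdx1 the core overlapped an AP-1 motif (TGAGTCA). Txnrd1 has 3 listed starts and Pgd 2, of which 1 each held the core. The 11 members with the core (those printed and Gsta3, Mgst1, Mt2 and Sod1) had a median log2 ratio of -0.23, with 10 below 0 and Nfe2l2 above it. Among 23 measured members with a window and no core, the median was -0.29 and 17 lay below 0. The difference between these sets was not tested. A match is a description of the sequence and not of binding.

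Most peroxiredoxin and thioredoxin genes had lower values in FABP7 KO macrophages. Ratios were below 0 for 9 of the 11 and above 0 for 2, with a median of -0.28, and 1 passed either size rule. That gene, Prdx4 (ENSMUSG00000025289, chromosome X), was at 37.9 FPKM in KO and 79.6 FPKM in WT macrophages, a log2 ratio of -1.05 with a counting interval of -1.16 to -0.98. Prdx4 reduces the peroxide formed during oxidative protein folding. Prdx1, the most abundant peroxiredoxin of the cytosol, was at 437 FPKM in KO and 596 FPKM in WT macrophages (log2 ratio -0.45). Its thioredoxin partner Txn1 was at 239 FPKM in KO and 358 FPKM in WT macrophages, at -0.58 just short of 1.5-fold. Prdx2, a cytosolic relative of Prdx1, was at 63.1 FPKM in KO and 86.6 FPKM in WT macrophages (-0.45). These cytosolic genes all had counting intervals below 0, but none reached 2-fold.

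In the mitochondrial branch, the peroxiredoxin Prdx3 was at 25.0 FPKM in KO and 30.7 FPKM in WT macrophages (log2 ratio -0.28). The mitochondrial thioredoxin Txn2 was at 48.5 FPKM in KO and 66.8 FPKM in WT macrophages (-0.45). Txnrd2, the mitochondrial thioredoxin reductase, was at 11.6 FPKM in KO and 10.5 FPKM in WT macrophages (0.14), 1 of the 2 genes of the group above 0. With Sod2 included, the 4 mitochondrial members had a median of -0.26, and the 17 members listed as cytosolic one of -0.33, of which 14 lay below 0. The cytosolic list left out Gpx1, the most abundant member, whose log2 ratio was 0.25. Most of the listed genes of both compartments thus had lower values.

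Txnrd1, the cytosolic thioredoxin reductase, was at 58.8 FPKM in KO and 69.2 FPKM in WT macrophages (log2 ratio -0.23). Srxn1, which repairs overoxidised peroxiredoxins, was at 11.5 FPKM in KO and 13.5 FPKM in WT macrophages (-0.22). Prdx5, found in mitochondria, peroxisomes and the cytosol, was at 251 FPKM in KO and 279 FPKM in WT macrophages (-0.15). Prdx6, a peroxiredoxin that uses glutathione in place of thioredoxin, was at 10.5 FPKM in KO and 9.90 FPKM in WT macrophages, a log2 ratio of 0.08 that lay within counting error.

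**Figure D3:**
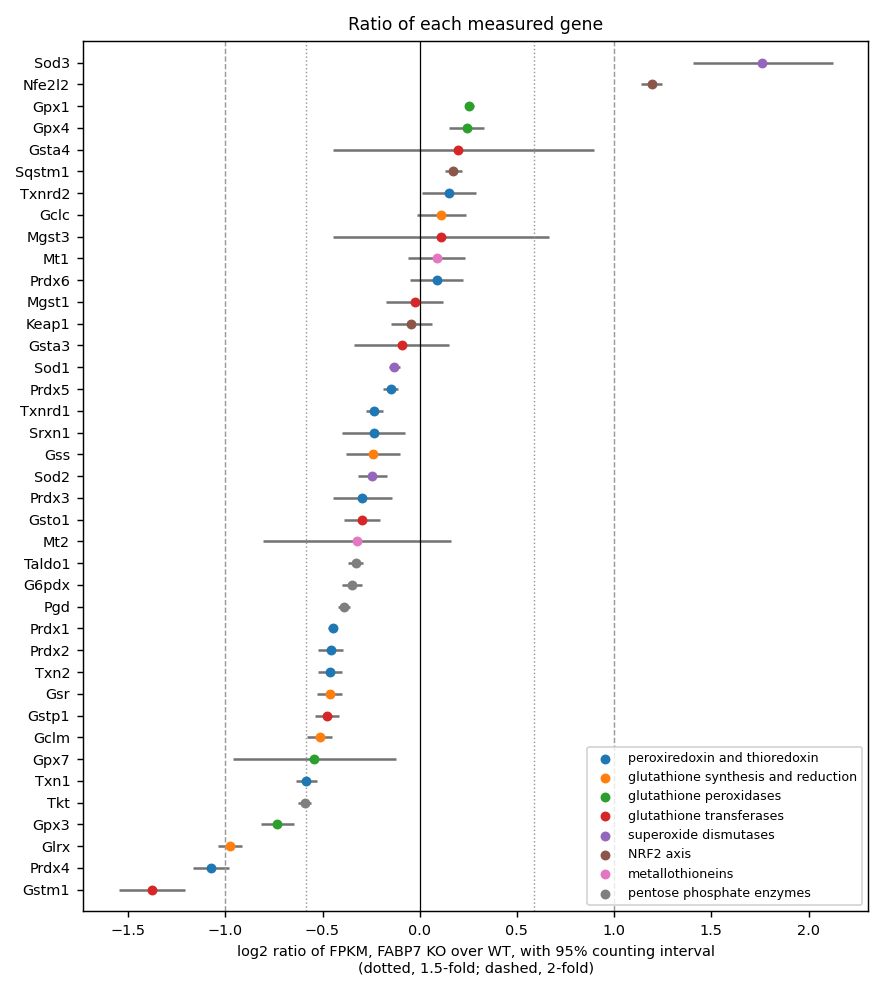
Log2 of the plain KO to WT ratio of FPKM (x axis, no pseudocount) for the 39 measured genes in order (points, coloured by role) with 95% counting intervals (lines). Dotted lines mark 1.5-fold and dashed lines 2-fold. Sod3 and Nfe2l2 stand apart on the right. Of the intervals, 24 lie wholly left of 0, a share that was not computed for all genes.

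The genes of glutathione supply also had mostly lower values. Glrx (ENSMUSG00000021591), the cytosolic glutaredoxin that removes glutathione from proteins, was at 33.5 FPKM in KO and 66.0 FPKM in WT macrophages. Its log2 ratio of -0.96 was close to 2-fold, with a counting interval of -1.04 to -0.92. Gsr, which reduces oxidised glutathione with NADPH, was at 66.7 FPKM in KO and 91.9 FPKM in WT macrophages (-0.46). The 5 measured genes of this group had a median of -0.46, and 4 of them lay below 0.

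Glutamate cysteine ligase, the rate-limiting enzyme of glutathione synthesis, has a catalytic subunit (Gclc) and a modifier subunit (Gclm), and their ratios differed in direction. Gclc was at 16.4 FPKM in KO and 15.2 FPKM in WT macrophages (log2 ratio 0.11, within counting error), whereas Gclm was at 28.2 FPKM in KO and 40.3 FPKM in WT macrophages (-0.50). The level of Gclm was thus 1.72 times that of Gclc in KO and 2.66 times in WT macrophages. Gss, which adds the final glycine, was at 7.39 FPKM in KO and 8.73 FPKM in WT macrophages (-0.21). Slc7a11, the cystine importer and an NRF2 target, was nearly undetected at 0.08 FPKM in KO and 0.07 FPKM in WT macrophages, which corresponds to an estimated 20 and 18 fragments.

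Among the glutathione peroxidases, the abundant intracellular enzymes had slightly higher values and the secreted one a lower value. Gpx1 was at 1315 FPKM in KO and 1103 FPKM in WT macrophages (log2 ratio 0.25, counting interval 0.23 to 0.28). Gpx4, which reduces lipid peroxides in membranes and guards against ferroptosis, was at 70.1 FPKM in KO and 59.3 FPKM in WT macrophages (0.24, interval 0.15 to 0.33). Gpx3 (ENSMUSG00000018339), the secreted plasma peroxidase, was at 56.2 FPKM in KO and 93.5 FPKM in WT macrophages, a log2 ratio of -0.72 that passed 1.5-fold. Gpx7, a peroxidase of the endoplasmic reticulum, was at 3.58 FPKM in KO and 5.22 FPKM in WT macrophages (-0.44). Its relative Gpx8 was under the floor, at 0.35 FPKM in KO and 0.11 FPKM in WT macrophages. Gpx1, Gpx3, Gpx4, Txnrd1 and Txnrd2 are selenoproteins, and their ratios were split, with 3 above and 2 below 0.

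Of the glutathione transferases, which join glutathione to reactive compounds, Gstm1 (ENSMUSG00000058135, chromosome 3) had the lowest ratio of any measured member. It was at 14.8 FPKM in KO and 38.3 FPKM in WT macrophages, a log2 ratio of -1.32 with a counting interval of -1.55 to -1.21. Its close relatives have similar sequences, and the authors' treatment of reads that match several of them is not stated in the sources used here, so its value is uncertain. Among them, Gstm4 was at 3.68 FPKM in KO and 7.36 FPKM in WT macrophages and Gstm3 at 0.64 FPKM in KO and 2.11 FPKM in WT macrophages, both lower by 1.5-fold, but Gstm2 was at 2.88 FPKM in KO and 1.09 FPKM in WT macrophages, higher by 1.5-fold.

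Gstp1, the pi class transferase, was the most abundant of these enzymes, at 127 FPKM in KO and 177 FPKM in WT macrophages (log2 ratio -0.47). The nearly identical Gstp2 was at 84.8 FPKM in KO and 107 FPKM in WT macrophages, so the division of reads between the pair is uncertain. Gsto1, the omega class transferase, was at 48.5 FPKM in KO and 59.6 FPKM in WT macrophages (-0.29). Both were within 1.5-fold. In all, 9 members (Gstp1, Gstm1, Gsta3, Prdx1, Txn1, Sod1, Gpx4, Mt1 and Mt2) were listed as having close copies or pseudogenes with which they could share reads, and 7 of these had a ratio below 0.

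Mgst1, a microsomal transferase, was at 20.7 FPKM in KO and 21.1 FPKM in WT macrophages (log2 ratio -0.03). Mgst3, of the same family, was at 2.99 FPKM in KO and 2.77 FPKM in WT macrophages (0.08). The alpha class gene Gsta3 was at 3.44 FPKM in KO and 3.66 FPKM in WT macrophages, and Gsta4, which acts on the lipid peroxidation product 4-hydroxynonenal, at 1.88 FPKM in KO and 1.64 FPKM in WT macrophages. All 4 differences lay within counting error. Mgst2 stayed under the floor at 0.46 FPKM in KO and 0.18 FPKM in WT macrophages.

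Superoxide dismutases convert superoxide to hydrogen peroxide. Sod3 (ENSMUSG00000072941, chromosome 5) was at 4.27 FPKM in KO and 1.26 FPKM in WT macrophages, a log2 ratio of 1.22 that understates the plain FPKM ratio of 3.39. It rested on an estimated 286 fragments in the KO and 85 in the WT library. Sod1, the cytosolic copper and zinc enzyme, was at 251 FPKM in KO and 275 FPKM in WT macrophages (-0.13), and the mitochondrial manganese enzyme Sod2 was at 14.8 FPKM in KO and 17.6 FPKM in WT macrophages (-0.23). Only the secreted enzyme therefore passed a size rule. In the same libraries, markers of stellate cells and fibroblasts summed to 187 FPKM in KO and 80.2 FPKM in WT macrophages, with 8 of the 9 measured at least 1.5-fold higher. Of these, Lrat, Des and Reln reached the floor only in the KO library, which fixed their direction. Under the floor in both, Col1a2 and Pdgfrb had higher values in the KO library and Col1a1 a lower one (0.22 FPKM in KO, 0.29 FPKM in WT). Markers of sinusoidal endothelial cells summed to 379 FPKM in KO and 214 FPKM in WT macrophages. The part of these cell types in the Sod3 value was not tested.

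The metallothioneins, small cysteine-rich proteins that bind zinc and copper, stayed close to WT. Mt1 was at 35.0 FPKM in KO and 32.9 FPKM in WT macrophages (log2 ratio 0.09), and Mt2 at 6.31 FPKM in KO and 7.89 FPKM in WT macrophages (-0.28). Both differences were within counting error, Mt2 resting on an estimated 67 fragments in the KO and 84 in the WT library. Hepatocytes are known for strong expression of Mt1, Mt2, Gsta3, Gstm1 and Mgst1. The 25 hepatocyte markers summed to 1397 FPKM in KO and 712 FPKM in WT macrophages, with 18 at least 1.5-fold higher. Trf gave the largest part of both sums, at 642 FPKM in KO and 306 FPKM in WT macrophages. Of these 5 members, Gstm1 was 2-fold lower and the other 4 lay within 1.5-fold. The part of hepatocyte RNA in their values was not tested.

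All 4 pentose phosphate enzymes had lower values in FABP7 KO macrophages, with a median log2 ratio of -0.37 and every counting interval below 0. G6pdx, which commits glucose 6-phosphate to the pathway and forms its first NADPH, was at 102 FPKM in KO and 129 FPKM in WT macrophages (-0.35). Pgd, which forms the second NADPH, was at 134 FPKM in KO and 176 FPKM in WT macrophages (-0.39). In the non-oxidative branch, Taldo1 (transaldolase) was at 226 FPKM in KO and 284 FPKM in WT macrophages (-0.33). Tkt (transketolase, ENSMUSG00000021957) was at 103 FPKM in KO and 155 FPKM in WT macrophages, and its ratio of -0.59 lay just past 1.5-fold, a call lost under 2 other scalings of the KO library (-0.55 and -0.54). The values of the group lay close together, and Txn1 at -0.58 and Tkt at -0.59 were the members on either side of the 1.5-fold line.

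Other genes of these pathways were taken from 6 lists of 97 genes that are not members. Of the 82 measured, 7 passed 1.5-fold upwards and 7 downwards, or 8.54% each, close to the share of all genes. Their median was -0.10. In the NRF2 list, Mafg, a small MAF protein that pairs with NRF2, was at 24.2 FPKM in KO and 13.4 FPKM in WT macrophages (log2 ratio 0.81), and no other gene of the list passed. This list, which mixes regulators with other genes of the axis, had a median of 0.04 with 9 of 15 measured genes above 0. Among its regulators, Nfe2l1, Bach1, Mafg, Maff, Mafk and Cul3 lay above 0 and Rbx1 below it, while its other genes lay on both sides. The list of other glutathione genes had a median of -0.04 with 8 of 16 above 0. The medians were -0.14 for the thioredoxin relatives, -0.06 for the metal response list and -0.05 for the selenium list. The 15 measured genes of other NADPH sources had a median of -0.30 with 11 below 0, among them the folate enzymes Mthfd2, at 2.27 FPKM in KO and 6.20 FPKM in WT macrophages, and Mthfd1, at 6.50 FPKM in KO and 10.9 FPKM in WT macrophages. Both of these passed 1.5-fold, as did no other gene of that list, and Mthfd2 also passed 2-fold (log2 ratio -1.14).

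In the selenium list, Selenop, a secreted selenium carrier, was at 1311 FPKM in KO and 677 FPKM in WT macrophages (log2 ratio 0.95), Selenoh, a nuclear selenoprotein, at 7.83 FPKM in KO and 24.5 FPKM in WT macrophages (-1.53), and Pstk, a kinase of selenocysteine synthesis, at 3.83 FPKM in KO and 6.31 FPKM in WT macrophages (-0.60). The glutathione list held 4 genes higher (Ggt5, Oplah, Gstm2 and Gstt1) and 3 lower (Ggct, Gstm3 and Gstm4). Ggt5, a glutathione-cleaving transpeptidase family member, was at 5.88 FPKM in KO and 2.57 FPKM in WT macrophages, and Oplah (5-oxoprolinase), which returns glutamate from the glutathione cycle, was at 21.4 FPKM in KO and 12.2 FPKM in WT macrophages. Gstt1 was at 1.18 FPKM in KO and 0.43 FPKM in WT macrophages, and Ggct at 2.92 FPKM in KO and 4.98 FPKM in WT macrophages. Among the thioredoxin relatives, only Msrb3, a methionine sulfoxide reductase, passed 1.5-fold. It also passed 2-fold, at 3.30 FPKM in KO and 0.90 FPKM in WT macrophages (log2 ratio 1.18). No measured gene of the metal response list passed 1.5-fold.

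**Figure D4:**
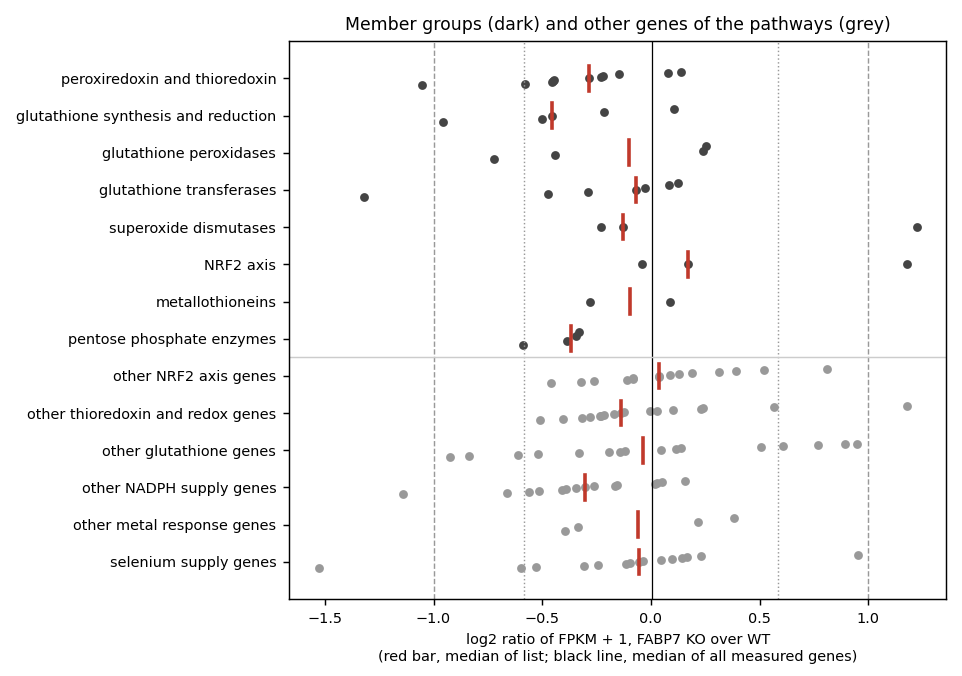
Points give the log2 ratio of KO over WT (x axis, FPKM + 1) of each measured gene in the 8 member groups (dark) and the 6 lists of other pathway genes (grey), with the median of each (red bar). Dotted lines mark 1.5-fold and dashed lines 2-fold. The glutathione supply and pentose phosphate medians lie at -0.46 and -0.37, left of the median of all genes at 0.004.

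The macrophage label was checked against its markers. All 12 pan-macrophage markers and all 8 Kupffer cell markers were measured, with Csf1r at 3173 FPKM in KO and 2372 FPKM in WT macrophages and Clec4f at 4156 FPKM in KO and 3188 FPKM in WT macrophages. Of these 20 markers, 3 passed 1.5-fold. Cd14 was higher at 100.03 FPKM in KO and 49.0 FPKM in WT macrophages, Lyz2 was higher at 2631 FPKM in KO and 1387 FPKM in WT macrophages, and Marco was lower at 714 FPKM in KO and 1377 FPKM in WT macrophages. Ratios below 0 were found for 4 of the 12 and 2 of the 8. The sums of the lists in the KO library were 1.17 and 1.04 times those in the WT library. Neutrophil markers summed to 111 FPKM in KO and 39.2 FPKM in WT macrophages. Csf3r gave the largest part of both sums, at 51.3 FPKM in KO and 27.3 FPKM in WT macrophages. All 7 measured markers were higher by at least 1.5-fold, 6 of them by 2-fold, with a median log2 ratio of 1.61. Among them, Camp (2.50 FPKM in KO, 0.15 FPKM in WT) and Ltf (3.51 FPKM in KO, 0.50 FPKM in WT) reached the floor only in the KO library. The floor thus fixed their direction. S100a9 was at 25.3 FPKM in KO and 4.31 FPKM in WT macrophages. The other 5 neutrophil markers were under the floor in both libraries. Among these were the defining marker Ly6g at 0.12 FPKM in KO and 0.18 FPKM in WT macrophages and Elane at 0.06 FPKM in KO and listed at 0 in WT macrophages. Erythroid markers summed to 65.1 FPKM in KO and 25.9 FPKM in WT macrophages. The 15 cell division genes were all at least 2-fold lower and summed to 208 FPKM in KO and 817 FPKM in WT macrophages, in the same direction as 28 of the 39 members. Their part in the lower member values, and that of the other cell types, was not tested. In bulk RNA, fewer cells of a type and less RNA per cell cannot be told apart.

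**Figure D5:**
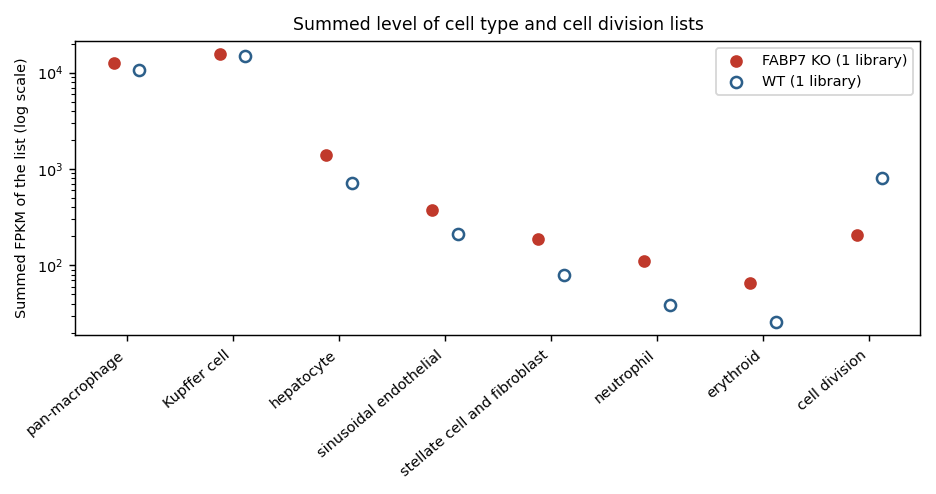
Summed FPKM (log scale) of 7 lists of cell type markers and of 15 cell division genes in the FABP7 KO library (red, left of each pair) and the WT library (open blue). The macrophage lists differ little, the hepatocyte, endothelial, stellate, neutrophil and erythroid sums are higher in the KO library, and the cell division sum is lower (208 against 817 FPKM).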

How the data were processed

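mRNA of liver macrophages was measured in 1 FABP7 KO and 1 WT library. Sequencing on an Illumina instrument followed oligo(dT) enrichment and random priming. The authors deposited FPKM values with 2 decimals for 22322 genes, and the table of both libraries repeats the tables of the single libraries. TopHat2 2.1.1 and Bowtie2 2.2.8 appear in the submitters' processing notes with no role, and for the build, annotation and counting tool nothing is stated in the sources used here. Counts, fold changes and p-values are not among the deposited columns.

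Symbols were taken from GENCODE M21 by Ensembl ID for 22267 genes, and 55 had none. All 43 members were found. Ratios used a pseudocount of 1 FPKM and a floor of 1 FPKM in at least 1 library. FPKM divides by gene length, so a gene model that differs from the authors' changes levels but hardly ratios. The spacing of low values in genes with 1 transcript under 1500 bases gave the depth, and exon lengths of GENCODE gave the estimated fragments. The steps were tested on simulated libraries. With 1 library per genotype no test was made.

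The members and lists were chosen with earlier results of these data known. Every member is named, and of the other pathway genes those past 1.5-fold. Alternatives were no floor, a floor of 5 FPKM, a pseudocount of 0.1, 3 other scalings and leaving out members with near-identical copies. Python 3.11.15, NumPy 2.4.6, pandas 2.3.3, SciPy 1.17.1 and Matplotlib 3.10.9 were used.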

Additional observations from a re-analysis of the deposited data

How the results depend on the processing

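No paired analysis was possible because each genotype has 1 library. With a floor of 5 FPKM, 1 member was left past 2-fold upwards and 1 past 1.5-fold upwards, since Sod3 fell under it, and the median of the glutathione transferases was -0.38. Without a floor, the medians were -0.34 for glutathione synthesis and reduction, 0.24 for the glutathione peroxidases and 0.066 for the NRF2 axis. Scaling the KO library by genes at 10 FPKM or more (0.974), by totals that left out mitochondrially encoded genes and hepatocyte and erythroid markers (0.965) or by the pan-macrophage markers (1.05) moved the pentose phosphate median to -0.33, -0.32 and -0.44. The second of these moved the NRF2 target median to -0.29. The scaling by pan-macrophage markers gave -0.42 for the NRF2 targets, -0.36 for the peroxiredoxins and thioredoxins, -0.53 for glutathione synthesis and reduction, -0.21 for the superoxide dismutases and 0.10 for the NRF2 axis. Without members that have near-identical copies, the medians were -0.44 for the glutathione peroxidases and 0.50 for the superoxide dismutases, which then held 2 genes. Each of these changes follows from the genes kept or the factor applied. Of 191 values of single members under other settings, none reversed among those past 1.5-fold, 3 within it changed sign, 2 fell short of 1.5-fold (Tkt at -0.55 and -0.54 under the first 2 scalings) and 1 passed it (Txn1 at -0.66 under the third). Under the third, Glrx also passed 2-fold (-1.03), which made 3 members lower by 2-fold. Depth limits the members near 1 FPKM, such as Gsta4.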
